A study of Drosophila melanogaster with 4 samples.

Results

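The NK homeobox cluster of Drosophila melanogaster is a row of 6 genes for homeodomain transcription factors, tin, bap, lbl, lbe, C15 and slou, at cytological position 93DE on the right arm of chromosome 3. The 6 genes were chosen by name and by position, with a window of 750 kb around them on FlyBase release 5. The window was chosen because the lists of dimethylated histone H3 lysine 27 (H3K27me2) described here leave a long stretch of it empty. They are 6 of the 3387 protein-coding genes that could be placed on 3R. Calls in the window numbered 42 in each list, of 10114 in replicate 1, 10115 in replicate 2 and 16728 in the series' list. H3K27me2 had been mapped by chromatin immunoprecipitation and sequencing (ChIP-seq) in head nuclei of mixed adult, wild-type Oregon-R flies, with the antibody Ab24684. There were 2 ChIP replicates, each with an input of sheared chromatin that was not precipitated, and no mutant or treatment. Whether the replicates were separate collections of flies is not given in the labels, and their spread may be technical. Heads hold neurons, glia, fat body, muscle and cuticle cells in bulk, so that fewer cells with the mark and less of the mark per cell cannot be told apart. The lists hold no transcripts, and the tissue was therefore not checked against marker genes.

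H3K27me2 is placed by Polycomb repressive complex 2 (PRC2), which adds methyl groups to lysine 27 of histone H3 in steps. The dimethyl form is known as a widespread mark of chromatin outside active genes, and the trimethyl form as the mark of domains that Polycomb proteins hold silent, where many homeobox genes lie. Only the dimethyl form was measured here. The NK genes are known from the embryo: tin (tinman) specifies the heart and the dorsal mesoderm, and bap (bagpipe) acts after it in the muscle of the gut. The ladybird pair lbl and lbe sets the identity of some heart and muscle cells, slou (slouch) that of some muscle founder cells, and C15 (clawless) patterns the tip of the leg.

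No sequence of the 6 genes was called as enriched in any of the 3 lists. The stretch without a call that held them ran from 17110055 to 17398528 in replicate 1 (288 kb), and from 17111701 to 17403794 in replicate 2 (292 kb). Its mean length was 290.3 kb ± 2.56 (SD, n = 2). In the series' list it ran from 17163164 to 17398518 (235 kb), and this part was free of calls in all 3 lists. The block was found in these lists, so its length and emptiness are a description and were not tested. A stretch without a call is sequence that the authors' caller did not list, and the lists do not show where reads could be aligned.

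**Figure D1:**
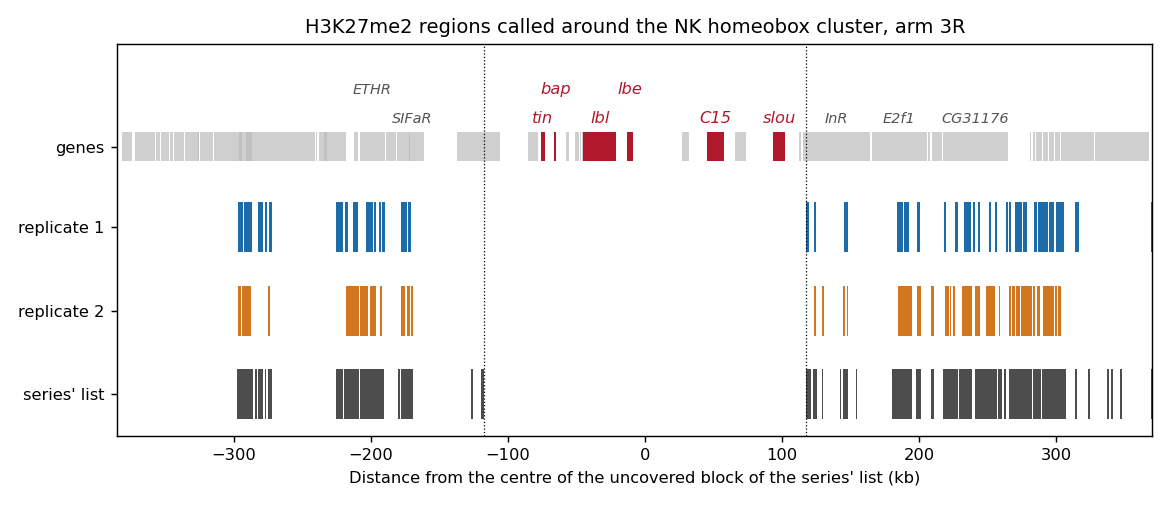
Called H3K27me2 regions (coloured bars, 1 row per list) and protein-coding genes (top row, NK cluster in red, others in grey) by distance in kb from the centre of the uncovered block of the series' list, whose edges are the dotted lines. All 6 NK genes lie between the dotted lines, where no list has a bar.

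By length, the block had rank 4 among the gaps of 3R in each list. In replicate 1 it was 1 of 2206 gaps with a median of 3499 bp, in replicate 2 it was 1 of 2249 with a median of 3154 bp, and in the series' list 1 of 3293 with a median of 1224 bp. The gap of rank 5 was 209.6 kb long in replicate 1, 209.9 kb in replicate 2 and 144 kb in the series' list, so the block was set off from shorter gaps most widely in the series' list. Gaps at least as long as the block held 5.01% of the arm in replicate 1, 5.41% in replicate 2 and 4.80% in the series' list. Over all arms its rank was 9 in replicate 1, 14 in replicate 2 and 5 in the series' list.

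**Figure D2:**
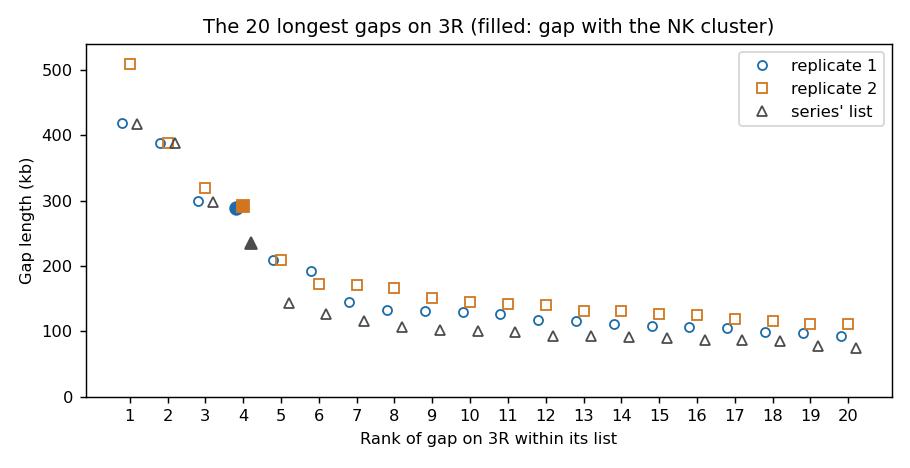
Length in kb of the 20 longest gaps between called regions on 3R, by rank within each list (circles replicate 1, squares replicate 2, triangles series' list), with the gap that holds the NK cluster filled. The filled symbols stand at rank 4 in all 3 lists, at 288 kb, 292 kb and 235 kb.

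The 6 genes were placed on release 5 by shifting their release 6 positions in RefSeq (assembly Release 6 plus ISO1 MT) by the constant that the definition of the cluster gives for 3R. All 6 were matched by symbol. The table used gives the span of each gene and no strand, so that values refer to gene bodies and not to promoters. From the first base of tin to the last base of slou the cluster spanned 178 kb, or 75.7% of the block of the series' list. A share of 0% was listed for all 6 gene bodies in each list. Of all protein-coding genes of 3R, 61.2% also had no covered base in replicate 1, 66.4% in replicate 2 and 50.0% in the series' list, so an uncovered body alone was common on this arm.

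The 6 genes lay far from the nearest call. No call lay within 10 kb of any of the 6 gene bodies, against 20.4% of the 3R genes without such a call in replicate 1, 27.4% in replicate 2 and 14.1% in the series' list. The median distance over the 6 genes was 99.6 kb in replicate 1, 98.0 kb in replicate 2 and 55.7 kb in the series' list. Over all 3R genes the median was 1.24 kb in replicate 1, 2.41 kb in replicate 2 and 0 kb in the series' list. Position within the block fixes these distances, and they are no measure of each gene by itself. The window was chosen as empty in these same lists, so distances longer than those of the arm were built into that choice. Comparisons of the 6 genes with all 3R genes, here and in the next paragraphs, only describe the block.

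The heart gene tin (Dmel_CG7895, 17204699 to 17207692) had its nearest call 94.6 kb away in replicate 1, 93.0 kb in replicate 2 and 41.5 kb in the series' list, on the left side in each. The gut muscle gene bap (Dmel_CG7902, 17214602 to 17216171), 6.91 kb to its right, was 104.5 kb from a call in replicate 1, 102.9 kb in replicate 2 and 51.4 kb in the series' list. Both genes were nearer to a call in the series' list than in the replicates, because the lists differed most at the left edge of the block. Of the 3R genes, 99.4% in replicate 1 and 99.2% in replicate 2 were nearer to a call than tin, and 99.5% and 99.4% were nearer than bap.

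The ladybird genes lay in the middle of the block. The body of lbl (Dmel_CG6570, 17235701 to 17259855), the longest of the 6 at 24.2 kb, was 125.6 kb from a call in replicate 1, 124.0 kb in replicate 2 and 72.5 kb in the series' list. Its neighbour lbe (Dmel_CG6545, 17267299 to 17272259) was 126 kb away in replicate 1, 132 kb in replicate 2 and 104 kb in the series' list, the greatest distances of the 6 genes in each list. Of the 3387 genes, 5 lay farther from a call than lbe in replicate 1, 7 in replicate 2 and 11 in the series' list. The space between lbl and lbe was 7.44 kb and held no other protein-coding gene.

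The leg gene C15 and the muscle identity gene slou stood apart from the others toward the right edge. C15 (Dmel_CG7937, 17325708 to 17338536) was 59.99 kb from a call in replicate 1, 65.3 kb in replicate 2 and 59.98 kb in the series' list, and was separated from lbe by 53.4 kb. The gene slou (Dmel_CG6534, 17374383 to 17382904) was the nearest of the 6 to a call, at 15.6 kb in replicate 1, 20.9 kb in replicate 2 and 15.6 kb in the series' list. The share of 3R genes nearer to a call than slou was 86.7% in replicate 1, 85.4% in replicate 2 and 91.3% in the series' list. For C15 and slou the lists differed by at most 5.28 kb, since all 3 lists ended the block near the same site on the right.

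**Figure D3:**
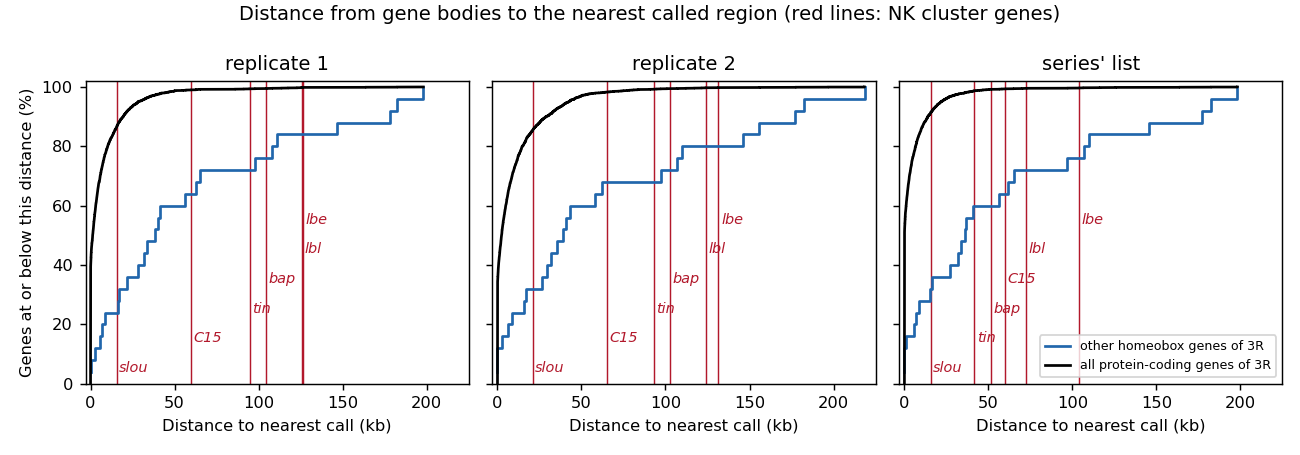
Percentage of protein-coding genes of 3R (black) and of 25 other homeobox genes of 3R (blue) whose body lies at or below a given distance in kb from the nearest called region, in 3 panels for the lists. Red lines mark the 6 NK genes, from slou at 15.6 kb to lbe at 126 kb in replicate 1.

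The block also held protein-coding genes that are no part of the NK cluster. There were 8 of these wholly inside it in the series' list. Each was at 0% in every list, as any gene wholly inside this stretch must be. To the left of tin lay mod(mdg4), whose many protein isoforms include a chromatin insulator protein. Between bap and lbl lay Ugt49B2, CG7907, CheB93a and CheB93b. Fancm, a DNA repair helicase, lay between lbe and C15, sp3 between C15 and slou, and CG15498 between slou and the right edge. The block without calls thus took in genes of other kinds as well.

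The block was poor in genes, a property that did not enter the choice of the cluster. It held 14 protein-coding genes, or 5.95 per 100 kb, against 12.2 per 100 kb on the rest of 3R outside the window. Among 2669 windows of the same width on the rest of 3R, taken every 10 kb, 8.92% held fewer genes. Gene bodies filled 41.7% of the block, against 70.9% of the rest of 3R. The left flank, from the start of the window to the block, had 14.1 genes per 100 kb and 84.1% of its bases in gene bodies. The right flank, from the block to the end of the window, had 8.35 genes per 100 kb and 88.5% of its bases in gene bodies. These densities rest on 37 genes on the left and 21 on the right, among them aus and InR, which cross the block edges. The 14 genes of the block are those wholly inside it. Flank gene counts given further on leave out aus and InR. The part of gene density in the missing calls was not tested.

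The right edge of the block lay within InR, the insulin receptor gene, in all 3 lists. The first call was at 17398529 to 17400715 in replicate 1 (score 0.57), at 17403795 to 17405795 in replicate 2 (score 0.56) and at 17398519 to 17401549 in the series' list (score 0.42). The score is the authors' own, given per region with no stated scale, and is compared here within a list. The right edges of the replicates were 5.27 kb apart, and replicate 2 had no call over the first region of replicate 1. The next calls, at 17403954 to 17405575 in replicate 1, 17409564 to 17411648 in replicate 2 and 17403602 to 17405860 in the series' list, were also within InR. The call at 17403795 in replicate 2 overlapped the second call of replicate 1. The third calls began 27.6 kb from the series' block edge in replicate 1, 26.3 kb in replicate 2 and 11.1 kb in the series' list. Toward the block the nearest protein-coding gene was CG15498, and beyond InR lay E2f1, a regulator of the cell cycle.

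These first calls on the right were weak to middling for the arm. In replicate 1 the first 3 had scores at or above those of 22.7%, 8.78% and 45.6% of all regions of 3R. In replicate 2 the shares were 32.9%, 55.6% and 3.73%. In the series' list they were 40.3%, 62.0% and 13.1%. The highest of these 9 shares was 62.0%.

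The left edge differed between the lists. In both replicates the last call before the block lay in SIFaR, the receptor of the neuropeptide SIFamide, at 17107675 to 17110054 in replicate 1 (score 0.68) and 17110204 to 17111700 in replicate 2 (score 0.51). These edges were 1.65 kb apart. The preceding calls were also in SIFaR, at 17102995 to 17107283 in replicate 1 (score 0.83) and 17107314 to 17109424 in replicate 2 (score 0.67). The third calls were at 17089202 to 17091041 in ETHR in replicate 1 (score 0.57) and at 17102529 to 17105741 in SIFaR in replicate 2 (score 0.71). From the block outward, these calls had scores at or above those of 63.8%, 93.5% and 23.0% of the regions of 3R in replicate 1, and of 14.1%, 78.9% and 90.8% in replicate 2. The series' list had 2 further calls to the right of these, at 17153992 to 17155106 and 17161092 to 17163163, both with a score of 0.36 and both in aus. Neither replicate had a call over either of them. These 2 calls had scores at or above those of 13.6% and 13.8% of the regions of 3R in the series' list. The block of the series' list was shorter than those of the replicates by these 2 calls, which moved its left edge by 53.1 kb from that of replicate 1 and 51.5 kb from that of replicate 2. The next call of the series' list, at 17110208 to 17111949, was in SIFaR again.

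Cover of the left flank, taken from the edge of the series' block, was below that of the rest of the arm. The left flank, 263 kb wide, had a cover of 16.2% in replicate 1 and of 14.1% in replicate 2 (mean 15.2% ± 1.52, SD, n = 2). On the rest of 3R the replicates gave 20.98% and 20.03% (mean 20.5% ± 0.670, SD, n = 2). In the series' list the shares were 25.8% in the left flank and 43.9% in the rest of 3R. Windows of the same width on the rest of 3R had lower cover than the left flank in 31.6% of cases in replicate 1, 29.2% in replicate 2 and 13.2% in the series' list, so the left flank lay within the range of the arm. The last 53.1 kb of this flank in replicate 1 and 51.5 kb in replicate 2 belonged to the replicate's own empty block. Taken from the replicate's own block edge, the left flank had a cover of 20.3% in replicate 1 and of 17.5% in replicate 2 (mean 18.9% ± 2.01, SD, n = 2), which in replicate 1 was close to the 20.98% of the rest of 3R. In the 100 kb next to the series' block alone, cover on the left was 20.6% in replicate 1, 26.8% in replicate 2 and 40.4% in the series' list, so replicate 2 was there above the rest of 3R and the other lists below it.

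Cover of the right flank as a whole was above that of the rest of the arm in each list. The right flank, 251 kb wide, had a cover of 25.5% in replicate 1 and of 30.3% in replicate 2 (mean 27.9% ± 3.41, SD, n = 2). Its cover in the series' list was 48.3%. Set against the rest of 3R, the ratio was 1.22 in replicate 1, 1.51 in replicate 2 and 1.10 in the series' list. Windows of that width on the rest of 3R were lower in 72.0% of cases in replicate 1, 85.3% in replicate 2 and 58.3% in the series' list. In the 100 kb next to the series' block alone, cover on the right was 15.6% in replicate 1, 21.8% in replicate 2 and 32.9% in the series' list, which was below the rest of 3R except in replicate 2. These differences were not tested, since the window was chosen from the same lists.

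The left flank was made of islands of calls between empty stretches. The island farthest from the block lay in SNF4Agamma, around the nested genes cDIP, CG5810 and Snmp1, a protein of pheromone-sensing neurons. A second ran over e (ebony), an enzyme of cuticle pigment and transmitter metabolism, CG5892 and ETHR, the receptor of ecdysis triggering hormone. The third was in SIFaR. The body of ETHR had a cover of 51.5% in replicate 1 and of 63.5% in replicate 2 (mean 57.5% ± 8.50, SD, n = 2). In the series' list it was covered to 98.1%. Snmp1 was covered to 100% in replicate 1, 82.4% in replicate 2 and 100% in the series' list. The gene e was covered to 80.3% in replicate 1, 0.0818% in replicate 2 and 94.8% in the series' list, so that among the replicates its cover rests on replicate 1.

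Between the islands lay genes with no call. A gap of 109 kb in either replicate and of 107 kb in the series' list reached from outside the window to SNF4Agamma. It held dmrt93B and the homeobox gene HHEX together with genes of general cell function such as Rab11, a small GTPase of membrane recycling, and slmb, a subunit of a ubiquitin ligase. HHEX was 27.9 kb from a call in both replicates and 26.0 kb in the series' list. A second gap, 46.7 kb long in replicate 1, 55.3 kb in replicate 2 and 46.8 kb in the series' list, held Ddrgk1, Smyd5, Oga, CG3337 and Nelf-A, the last a subunit of a factor that pauses RNA polymerase II. Of the 36 genes of the left flank, 26 were at 0% in all 3 lists, a criterion that 49.5% of all 3R genes met. The first gap alone held 17 of the 36 in each list. In contrast, CG5810 and CG5892 were covered to 100% in every list, and CG17298, near the block edge, had a mean cover of 79.6% ± 28.8 (SD, n = 2) in the replicates and 100% in the series' list.

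The right flank filled with calls at a distance from the block. Between 40 and 60 kb from the block edge no list had a call, in the stretch from the end of InR into E2f1. From 100 to 190 kb the mean cover of the replicates per 10-kb bin ran from 33.6% to 88.3%, and the series' list reached 100% in 2 bins. This stretch held CG31176 and a row of genes of which CG5849, CG31343, CG31233 and CG31198 had the highest mean cover over the replicates, at 63.8% ± 19.5, 97.5% ± 3.54, 95.8% ± 5.95 and 84.9% ± 10.7 (SD, n = 2 each). Beyond 200 kb the replicates had no call up to 250 kb, over the whole of tsl and CASK. Of the 20 genes of the right flank, 4 were at 0% in all 3 lists (Archease, PolA1, CG6800 and Polr1H), again beside 49.5% of all 3R genes.

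**Figure D4:**
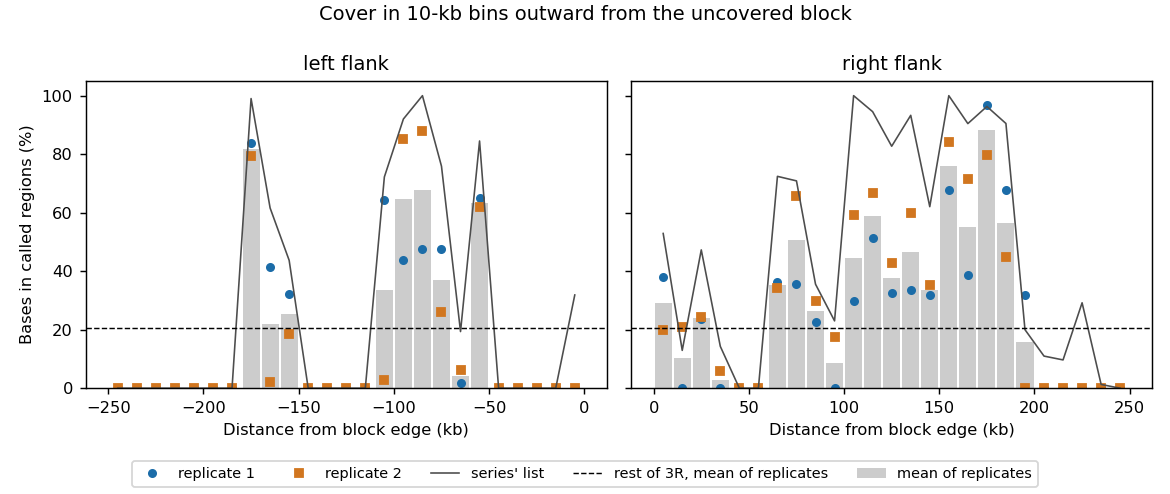
Percentage of bases in called regions per 10-kb bin, by distance in kb outward from the edges of the series' block, for replicate 1 (circles), replicate 2 (squares), their mean (bars) and the series' list (line), with the mean of the rest of 3R at 20.5% (dashed). The left flank shows separate islands with bins at 0 between them, and the right flank rises to 88.3% in the replicates' mean between 170 and 180 kb.

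Bins and genes without a call were compared with the arm. In the left flank 16 of 26 bins of 10 kb had no call in replicate 1, 18 of 26 in replicate 2 and 15 of 26 in the series' list. In each replicate 4 of these bins lay wholly inside its own empty block, and without them 12 of 22 bins had no call in replicate 1 and 14 of 22 in replicate 2. In the right flank the numbers were 10, 8 and 3 of 25. Over all bins of 3R, the block included, 41.5% had no call in replicate 1, 43.6% in replicate 2 and 24.2% in the series' list. Of the 36 genes of the left flank, 27 had no covered base in replicate 1, 27 in replicate 2 and 26 in the series' list. The right flank had 10, 9 and 4 such genes of 20 in the same lists. Against the 61.2%, 66.4% and 50.0% of all 3R genes, the left flank thus held a greater share of uncovered genes in each list and the right flank a smaller one. On the left, however, 17 of the 36 genes lay in the same gap in each list, the one that reached in from outside the window. They were all uncovered and are not separate observations, so the greater share on the left leans on that gap.

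Scores of the flank regions were close to those of the rest of the arm. In replicate 1 the 42 flank regions had a median score of 0.62 (lowest 0.44, highest 1.07), against 0.64 for 2167 regions on the rest of 3R. In replicate 2 the medians were 0.62 for 42 flank regions (lowest 0.41, highest 0.81) and 0.60 for 2208 regions on the rest of 3R. In the series' list both medians were 0.43, over 42 flank regions and 3257 regions on the rest of 3R. The difference of medians, flanks minus the rest of 3R, was -0.026 in replicate 1 and 0.022 in replicate 2. Its sign differed between the replicates, and its mean of -0.0019 ± 0.033 (SD, n = 2) was smaller than their spread.

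The median scores of the 2 sides differed mainly in replicate 1. In replicate 1 the left flank had a median of 0.68 (15 regions) and the right flank 0.58 (27 regions). In replicate 2 the medians were 0.64 (14 regions) on the left and 0.62 (28 regions) on the right, and in the series' list 0.44 (14 regions) and 0.43 (28 regions). The left flank thus had the higher median in each list, by less than 0.1 on the scale of the score. This difference was not tested. The highest score of the left flank was 1.07 in replicate 1, at 16998861 to 17002139 in SNF4Agamma, which no other region of 3R in that list exceeded. It had no overlapping call in replicate 2, whose highest score on the left was 0.74, at 17075389 to 17079084 in ETHR. On the right the highest score was 0.86 in replicate 1 at 17550680 to 17555444 and 0.81 in replicate 2 at 17469680 to 17475292, within E2f1.

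The longest calls differed between lists as well. The longest on the left were 5487 bp in replicate 1 (in e, score 0.77), 6362 bp in replicate 2 (over CG5810 and Snmp1, score 0.71) and 17785 bp in the series' list (over ETHR, score 0.57). On the right they were 4944 bp in replicate 1 (in CG31176, score 0.66), 7961 bp in replicate 2 (over Sfp93F, CG42869 and CG42870, score 0.69) and 16325 bp in the series' list (from CG5849 to CG42335, score 0.59). In the series' list the highest scores of the flanks were 0.72 on the left, at 16998827 to 17002312, and 0.84 on the right, in a call of 1110 bp at 17586643 to 17587752 that neither replicate had.

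**Figure D5:**
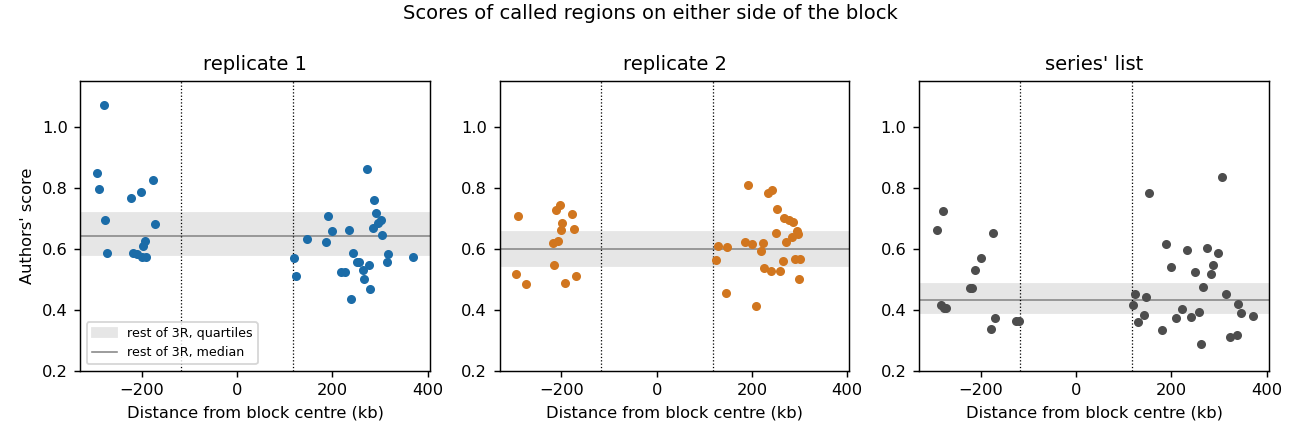
The authors' score of each called region by distance in kb from the centre of the block, in 3 panels for the lists, with the median (line) and quartiles (band) of regions on the rest of 3R and dotted lines at the block edges. Flank regions lie above, within and below the band, with a highest score of 1.07 in replicate 1.

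Most calls of the flanks were overlapped by a call of the other replicate, but not all calls at the block edges were. The call at the right edge in replicate 1 and the call at the left edge in replicate 2 had no such overlap. Of the 42 flank regions of replicate 1, 31 (73.8%) were overlapped by at least 1 bp in replicate 2, against 65.3% of 2167 regions on the rest of 3R. Of the 42 flank regions of replicate 2, 33 (78.6%) were overlapped in replicate 1, against 66.3% of 2208 regions on the rest of 3R. Base by base, the bases covered in both replicates were 0.393 of those covered in either on the left, 0.423 on the right and 0.370 on the rest of 3R. By each of these measures the replicates overlapped more in the flanks than on the rest of the arm, and the difference was not tested.

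The counting error of the flank scores was close to that of the arm. Each score equals log2 of a ratio of whole numbers less a constant of its list, for 100% of the scores of either replicate and 99.98% of those of the series' list. Taking the upper number for ChIP reads and the lower for input reads, both in lowest terms, is an interpretation that neither headers nor labels give. On this reading the median counting error of a flank score was at most 0.16 in replicate 1, 0.15 in replicate 2 and 0.12 in the series' list, against 0.17, 0.16 and 0.11 on the rest of 3R. This error leaves out PCR copies and all variation between samples. The block has no regions and hence no such numbers, so the depth inside it is unknown.

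Other homeobox genes of the arm were set beside the NK cluster. The list of 26 was chosen from general knowledge, with earlier results of these data known. It was matched in full on 3R, and 25 of its genes lay outside the window. Of these 25, a gap of at least 100 kb held 17 in each list, and they were the same 17 genes. Such gaps held 8.44% of all 3R genes in replicate 1, 16.0% in replicate 2 and 4.31% in the series' list, and all 6 NK genes. The 17 genes came from 6 gaps, so they are not 17 separate observations, and their share was not tested. The median distance of the 25 genes to a call was 38.6 kb in replicate 1, 38.8 kb in replicate 2 and 36.2 kb in the series' list.

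By the length of its gap in the series' list, hth (homothorax), a partner of Hox proteins, was most like the NK cluster. Its gap was 300.3 kb long in replicate 1, 319 kb in replicate 2 and 298 kb in the series' list, against 288 kb, 292 kb and 235 kb for the NK block. Next came Ubx, abd-A and Abd-B of the bithorax complex, in a gap of 389 kb for either replicate and 388 kb for the series' list. They were followed, at equal distance, by 9 genes of the Antennapedia complex region, among them Dfd, Scr and Antp, in a gap of 419 kb in replicate 1, 509 kb in replicate 2 and 418 kb in the series' list. Likeness was measured as the difference in log length over the series' list alone. All these gaps were longer than the NK block in each list.

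A long gap was not a feature of every homeobox gene of the arm. NK7.1, another NK gene, was covered to 16.1% in replicate 1, 21.03% in replicate 2 and 33.7% in the series' list. CG15696 was covered to 100% in replicate 1, 96.5% in replicate 2 and 100% in the series' list. Of the 25 genes, 23 had no covered base in replicate 1, 22 in replicate 2 and 22 in the series' list, beside 61.2%, 66.4% and 50.0% of all 3R genes in the same lists.

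Genes of mesoderm and of other developmental programmes gave a more mixed picture. Of 30 listed genes, 15 lay on 3R. No base was covered in 9 of these 15 in each replicate and in 7 in the series' list, counts close to the background of 61.2%, 66.4% and 50.0% of 3R genes. A gap of at least 100 kb held 5 of the 15 in replicate 1, 6 in replicate 2 and 1 in the series' list, which was grn, a GATA factor, where such gaps held 8.44%, 16.0% and 4.31% of all 3R genes. The GATA factor pnr, which acts with tin in the heart, was in a gap of 129.6 kb in replicate 1, 116 kb in replicate 2 and 91.7 kb in the series' list. Another of the 15, srp, lay in the same gap in each list, so these counts of genes are not counts of separate gaps. The muscle gene how was covered to 22.2% in replicate 1, 35.4% in replicate 2 and 70.3% in the series' list. Cover thus varied widely among these 15 genes.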

How the data were processed

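H3K27me2 ChIP-seq of fly heads was available as 3 region lists, for ChIP replicate 1, for ChIP replicate 2 and for the series as a whole. Neither input has a list. Per the file headers, coordinates are on FlyBase release 5. The submitters' processing notes name Bowtie 0.12.7. Not given in the sources used here are the region caller, its threshold and how the series' list was built. The score of each region was deposited by the authors without a stated scale. Library totals are unknown, so precision is described only by the numbers recovered from the scores (relative tolerance 1e-12). Regions, gaps and covered bases were counted with Python 3.11.15 and NumPy 2.4.6, after a check on simulated data. Genes were placed with the release 6 table and a constant shift, which could not be checked against release 5 sequence. The shift left 11 genes of 3R outside the arm. The NK genes, the window and the gene lists were chosen with earlier results of these data known. Named are the 6 NK genes, other protein-coding genes inside the block, genes next to its edges, listed homeobox genes nearest in gap length or covered to at least 20%, the 3 calls next to each edge, and the longest and highest-scoring call of each flank. Flank genes and mesoderm genes named beyond these were chosen after their values were seen. Everything is a description, with no test, since the window was chosen from these lists. Alternatives were the series' list, single replicates, score and length filters, a flank of 100 kb, flanks from each replicate's own block edge, gene bodies with 5 kb added and a reciprocal overlap of 50%.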

Additional observations from a re-analysis of the deposited data

How the results depend on the processing

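No paired analysis was possible because only the ChIP samples have region lists, and the inputs of the same numbers have none here. The score filter for the rest of 3R, the minimum width for the series' list and the 5 kb added to gene bodies in the series' list were chosen after seeing the data. Cover of the 6 NK gene bodies was 0% under every alternative run. This outcome was fixed in advance, since the window was chosen as empty and no list had a call within 10 kb of these bodies. The block, 290.3 kb as the mean of the replicates, was 235 kb in the series' list, with or without regions shorter than any in the replicates. It was 359.9 kb with scores at or above the median, 305 kb with scores at or above percentile 25, 291 kb without regions under 1500 bp, and 288 to 292 kb with 1 replicate left out. Left flank cover moved from 15.2% to 25.8% in the series' list, 23.7% within 100 kb of the block and 10.1% with scores at or above the median, and ran from 14.1% to 16.2% with 1 replicate left out. Right flank cover moved from 27.9% to 48.3%, 18.7% and 12.8% under the same settings, and ran from 25.5% to 30.3%. The rest of 3R moved from 20.5% to 43.9% in the series' list and 10.6% with scores at or above the median, and ran from 20.03% to 20.98%. Within 100 kb the mean of the replicates was thus above the rest of 3R on the left and below it on the right, the opposite of the order over the whole flanks. No single list showed both changes: on the left replicate 1 (20.6%) and the series' list (40.4%) stayed below their rest of 3R, and on the right replicate 2 (21.8%) stayed above it. Taken from each replicate's own block edge, a setting also chosen after seeing the data, left flank cover was 18.9% and right flank cover 28.2%. The score difference of -0.0019 turned to 0.0044 with means in place of medians and ran from -0.026 to 0.022 with 1 replicate left out. The share of flank regions overlapped in the other replicate was 42.9% with a reciprocal overlap of 50%, against 76.2% with 1 bp. On the rest of 3R it was 34.1% in replicate 1 and 33.4% in replicate 2 with 50%, against 65.3% and 66.3% with 1 bp. The block holds no counts, so low depth or sequence that cannot be aligned there could not be examined.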
